A study of Mus musculus with 2 samples.

Results

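The SMN complex genes of mouse sarcoma cells were examined in the control cells and after silencing of the circular RNA circCsnk1g3. The 9 genes were Smn1, Gemin2, Gemin4, Gemin5, Gemin6, Gemin7, Gemin8, Ddx20 and Strap, taken by symbol from a deposited table of 25509 genes. Gemin4 was picked from this very comparison, because its decrease was among the largest of the table, and the other members joined it as parts of the same complex. The Gemin4 difference is therefore given as a description. All 9 genes had at least 10 counts in 1 library or both, as did 12941 genes of the table.

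One library came from cells transduced with a hairpin against the backsplice junction of circCsnk1g3 (shcircCsnk1g3), and the other from cells with the control hairpin (shCTR). Both carried the same background. They were C57BL/6 mesenchymal stem cells without p53 that overexpress Ccne1, were grown as a subcutaneous tumor and then seeded in the lungs of further mice, and were transduced after recovery from the lung foci. With 1 library per condition the spread between cultures is unknown and no test between conditions could be made. Every range given below is a 95% interval from the counts, which covers counting error only. The libraries held 38792143 (shcircCsnk1g3) and 42709996 (shCTR) counts. Mesenchymal markers were abundant, with 10358 and 10793 CPM (the counts of a gene relative to the TMM-scaled size of its library) summed over 10 genes in the same order, although Thy1 had 0 and 1 counts. Of the 9 mesenchymal markers tested 7 were lower in shcircCsnk1g3, against 49.6% of all genes tested. Intervals lay below 0 for 5 of the 9 and above 0 for 2 (Col1a2 and Col3a1), against 28.2% and 26.9% of all genes tested. Values ran from Ly6a at -0.69 (1854 and 3223 counts) to Col3a1 at 0.37 on the log2 scale. Of the markers, 6 of 8 for leukocytes, 5 of 6 for lung epithelium and 2 of 4 for endothelium had at most 3 counts in either library. Cd14 (1844 and 1774 counts) and Cd68 (87 and 155 counts) were the exceptions among the leukocyte markers, and of the hemoglobin genes Hba-a1 had 423 and 604 counts and Hba-a2 216 and 199, while the other 2 were at 0 in both libraries. Whether other cells had a part in the differences below was not tested. Csnk1g3 itself had 2159 counts in shcircCsnk1g3 and 2411 in shCTR. That value is of the linear transcript, since a circle has no poly(A) tail, and it checks neither label.

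The SMN complex assembles the RNA-protein particles of the spliceosome. In the cytoplasm it places a ring of Sm proteins around each small nuclear RNA (snRNA), after which the particle (snRNP) is imported into the nucleus. Loss of SMN protein in humans causes spinal muscular atrophy, but the complex works in every cell type, and dividing cells need a steady supply of new snRNPs.

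Gemin4 (ENSMUSG00000049396) is a subunit held in the complex by the helicase Gemin3. The gene lies on the minus strand of chromosome 11, from 76210571 to 76217664 (GRCm38), and its coding transcript Gemin4-201 has 2 exons. The last of them, from 76210571 to 76213923, is also the last exon of transcript Glod4-206 of the upstream gene Glod4 (ENSMUSG00000017286, a glyoxalase domain protein), in the same direction. This exon makes up 3353 of the 3540 bases of Gemin4-201, or 94.7%, and 3353 of the 4203 bases of Glod4-206, or 79.8%. It is nearly all coding sequence in Gemin4, with 3164 coding bases, and almost wholly 3′ untranslated in Glod4-206, where only its first 6 bases are coding. What differs between the transcripts is the exon before it, so their junctions are shown, from GENCODE M21 on GRCm38, with 15 bases on each side, and the shared exon in capitals (chr11:76213909-76213923). The lower-case bases are chr11:76217478-76217492 for Gemin4 and chr11:76233022-76233036 for Glod4.
Gemin4-201, exon 1 to exon 2: ccgccatggacctagGACCCTTGAATATCT
Glod4-206, exon 8 to exon 9: aaattattggatgatGACCCTTGAATATCT
Each junction was found in 1 annotated transcript. A read that lies wholly within the shared exon matches both genes with 100% identity over 3353 bases, and the program behind the deposited counts (RSEM) divides such reads between them by an estimate. In addition, 2875 of the exon bases of Gemin4 are covered on the opposite strand by Fam57a, and the strand setting of the counting is not given in the sources used here. The version numbers of Gemin4 in the table and in M21 were the same.

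Gemin4 had 208 counts in shcircCsnk1g3 and 918 in shCTR. Its level was 5.30 CPM (4.61 to 6.08) in shcircCsnk1g3 and 21.7 CPM (20.3 to 23.2) in shCTR. The intervals of the libraries were far apart, and the level in the silenced cells was 4.10-fold lower. The log2 fold change (shcircCsnk1g3 over shCTR) was -2.02 (-2.26 to -1.82). Gemin4 passed 4-fold only narrowly, and not with total counts or a prior count of 10. A decrease of 4-fold or more was found for 0.402% of all genes tested, for 0.0469% of those with 200 summed counts or more and for 0.022% of those whose mean reached 10 CPM, where 0.44% were at least 2-fold lower. Among the 9084 genes whose mean reached 10 CPM, Gemin4 ranked 2 from the lowest, after Acan at -2.53 (372 and 2331 counts) and before Apln at -1.75 (369 and 1345 counts). The rank and these shares describe the value for which Gemin4 was picked, and Gemin4 reached the mean of 10 CPM through its level in shCTR. Next in that order came Tgfbr2 at -1.59 and Dazap2 at -1.59. These are the genes whose difference was closest in size to that of Gemin4 over the 2 libraries, at distances of 0.51, 0.27, 0.43 and 0.44 on the log2 scale. None of these 4 genes shares an exon base with another annotated gene on its own strand.

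The counts of Glod4 lay on the other side. Glod4 had 4095 counts in shcircCsnk1g3 and 3999 in shCTR, which is 104 and 94.7 CPM, a log2 fold change of 0.14 (0.08 to 0.20). These counts pool the transcripts of Glod4. Its coding transcript Glod4-201 ends in another last exon, upstream of Gemin4, and lacks the shared exon. How much of the Glod4 counts came from the shared exon is therefore unknown. The level of Gemin4 was 16.4 CPM lower in the silenced cells (a difference of -16.4), and that of Glod4 was 9.77 CPM higher. Summed over both genes, the locus had 4303 counts in shcircCsnk1g3 and 4917 in shCTR, or 110 and 116 CPM. The log2 fold change of the sum was -0.08 (-0.14 to -0.03). Gemin4 took 4.83% (4.21 to 5.52) of these summed counts in shcircCsnk1g3 and 18.7% (17.6 to 19.8) in shCTR. The ranges of these shares treat estimated counts as counts and leave out the error of dividing the shared reads, so they are too narrow. The sum was chosen after the values were seen. It does not depend on how the reads of the shared exon were divided between these genes, but Glod4 made up most of it in both libraries, so a small difference of the sum says little about Gemin4 itself. The part of that division in the Gemin4 value was not tested. A change in the makeup of the cells and a change in RNA per cell cannot be told apart in bulk libraries either.

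**Figure D1:**
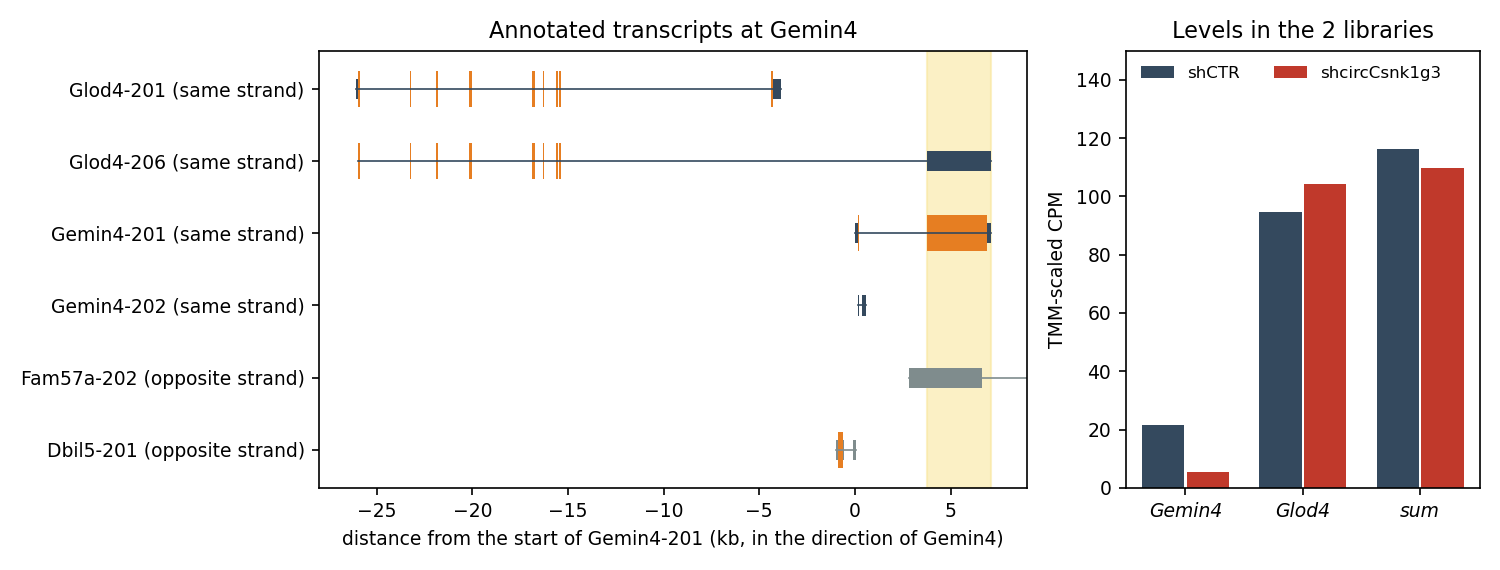
Left, exons (bars) and coding parts (taller orange bars) of annotated transcripts at Gemin4, by distance in kb from the start of Gemin4-201. The shaded exon belongs to both Gemin4-201 and Glod4-206. Right, TMM-scaled CPM of Gemin4, Glod4 and their sum in the shCTR and shcircCsnk1g3 libraries, 1 library per bar and hence no error bar. Gemin4 is at 21.7 and 5.30 CPM, the sum at 116 and 110 CPM.

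Fam57a, on the opposite strand, had 940 counts in shcircCsnk1g3 and 1041 in shCTR, a log2 fold change of -0.04 (-0.17 to 0.09). With Fam57a added, the sum of the 3 genes was 5243 and 5958 counts, a log2 fold change of -0.08 (-0.13 to -0.02). Dbil5, which starts within the first exon of Gemin4 on the opposite strand, had 6 and 4 counts, too few for a direction. Of the genes farther out, Nxn and Vps53 had intervals below 0. Nxn, which encodes nucleoredoxin, was at -0.66 (1117 and 1899 counts) and Vps53, a subunit of a tethering complex for retrograde transport, at -0.33 (1376 and 1864 counts). Mrm3, a methyltransferase for mitochondrial ribosomal RNA, was at 0.12, Timm22, a mitochondrial import protein, at 0.03, Rflnb at -0.15 and Rph3al at 0.31, and the intervals of these 4 genes held 0.

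Among the SMN complex genes, Gemin4 was the only one with any exon base shared on its own strand, at 89.8% of all its exon bases. Gemin7 shared 263 exon bases with Zfp296 on the opposite strand, and the other 7 members shared none on either strand. Pseudogenes with at least 90% identity over 200 bases or more were annotated for Gemin4 (Gm6330, 97.6% over 1439 bases), Gemin2 (Gm19086), Gemin6 (Gemin6-ps and Gm3678) and Gemin8 (Gm5455). The deposited counts hold no entry for the identifiers of these pseudogenes.

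The remaining subunits stayed within 1.5-fold of the control. Without Gemin4, the 8 genes had a median log2 fold change of 0.02, with a range from -0.13 to 0.47, and the median of all genes tested was 0.00. Over all 9 members the median was also 0.02. The number of members at least 2-fold lower was 1, Gemin4, and none was at least 2-fold higher. Of all genes tested, 2.55% were at least 2-fold lower and 2.13% at least 2-fold higher. Intervals wholly below 0 were found for 2 members (Gemin4 and Strap; 28.2% of all genes) and wholly above 0 for 2 (Gemin2 and Smn1; 26.9% of all genes), shares near those of the table. The intervals of the other 5 members held 0.

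Smn1 (ENSMUSG00000021645, chromosome 13, 100124852 to 100137690) encodes the oligomeric core protein that binds the methylated tails of Sm proteins. It had 1428 counts in shcircCsnk1g3 and 1300 in shCTR, or 36.4 and 30.8 CPM. Its log2 fold change was 0.24 (0.13 to 0.35). Gemin2 (ENSMUSG00000060121, chromosome 12, 59013393 to 59028470) is the direct partner of SMN and holds the Sm proteins before they meet the snRNA. It had 894 counts in shcircCsnk1g3 and 695 in shCTR, or 22.8 and 16.4 CPM. This was the largest positive difference among the 9 members, a log2 fold change of 0.47 (0.33 to 0.62). Both values were below 1.5-fold, and 2 of 9 members with an interval above 0 is no larger a share than the 26.9% of all genes. Among the 9084 genes whose mean reached 10 CPM, however, Gemin2 ranked 8885 from the lowest log2 fold change and Smn1 8135. Gemin2 thus lay near the upper end for genes of that level.

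**Figure D2:**
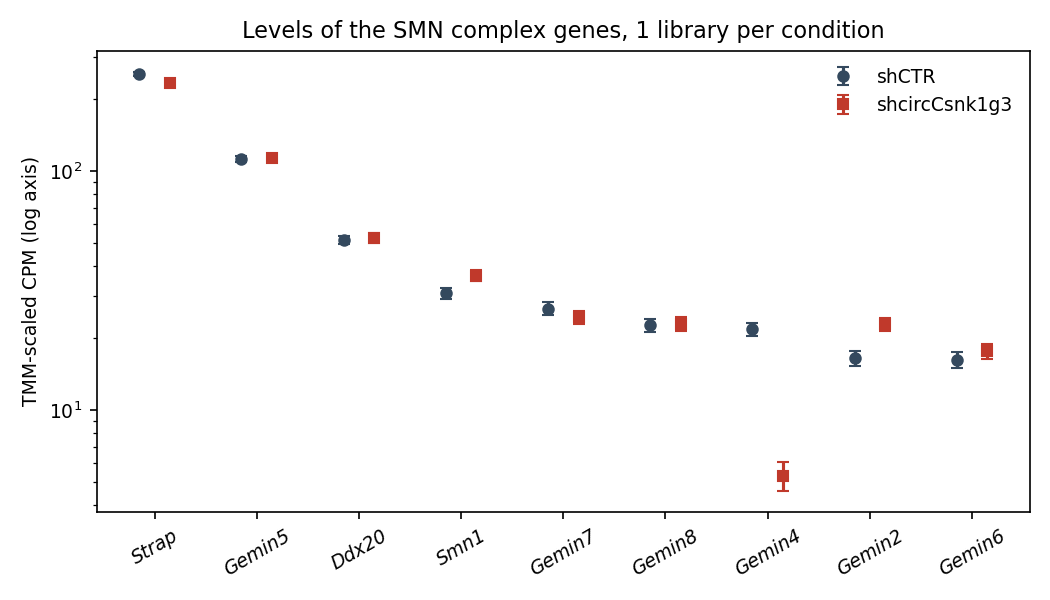
TMM-scaled CPM (log axis) of the 9 SMN complex genes in the shCTR (circles) and shcircCsnk1g3 (squares) libraries, in the order of the shCTR level. Bars are 95% counting intervals of the single library. Gemin4, at 21.7 and 5.30 CPM, is the only gene whose points lie far apart.

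Ddx20 (ENSMUSG00000027905, chromosome 3, 105678270 to 105687574) encodes Gemin3, the DEAD-box helicase that anchors Gemin4. It had 2055 counts in shcircCsnk1g3 and 2173 in shCTR, a log2 fold change of 0.03 (-0.06 to 0.11). A difference in Ddx20 was not detectable at this depth. Set against this partner within each library, which needs no scaling between libraries, Gemin4 had 10.1 counts for every 100 of Ddx20 in shcircCsnk1g3 and 42.2 in shCTR. Gemin5 (ENSMUSG00000037275, chromosome 11, 58120002 to 58168539) recognises the snRNA and also binds other RNAs and ribosomes. Its counts were 4434 in shcircCsnk1g3 and 4714 in shCTR, with a log2 fold change of 0.02 (-0.04 to 0.08). Although Gemin5 lies on the same chromosome as Gemin4, its levels in the libraries differed by less than counting error.

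Gemin6 and Gemin7 form a pair that resembles Sm proteins in fold, and Gemin8 ties this pair to SMN. Gemin6 (ENSMUSG00000055760, chromosome 17, 80224441 to 80228497) had 690 counts in shcircCsnk1g3 and 684 in shCTR, a log2 fold change of 0.12 (-0.03 to 0.27). Gemin7 (ENSMUSG00000044709, chromosome 7, 19564946 to 19577595) had 958 and 1123 counts, a log2 fold change of -0.12 (-0.25 to 0.00). Gemin8 (ENSMUSG00000040621, chromosome X, 166170454 to 166190512) had 896 and 955 counts, and its log2 fold change was 0.02 (-0.12 to 0.15). The peripheral trio therefore showed no difference beyond counting error. Strap (ENSMUSG00000030224, chromosome 6, 137735078 to 137751932) encodes Unrip, a WD-repeat protein that is found with the cytoplasmic complex and also acts in other pathways. It had 9117 counts in shcircCsnk1g3 and 10759 in shCTR, and its log2 fold change of -0.13 (-0.17 to -0.09) was small but narrow in interval, since Strap held the most counts of the members.

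**Figure D3:**
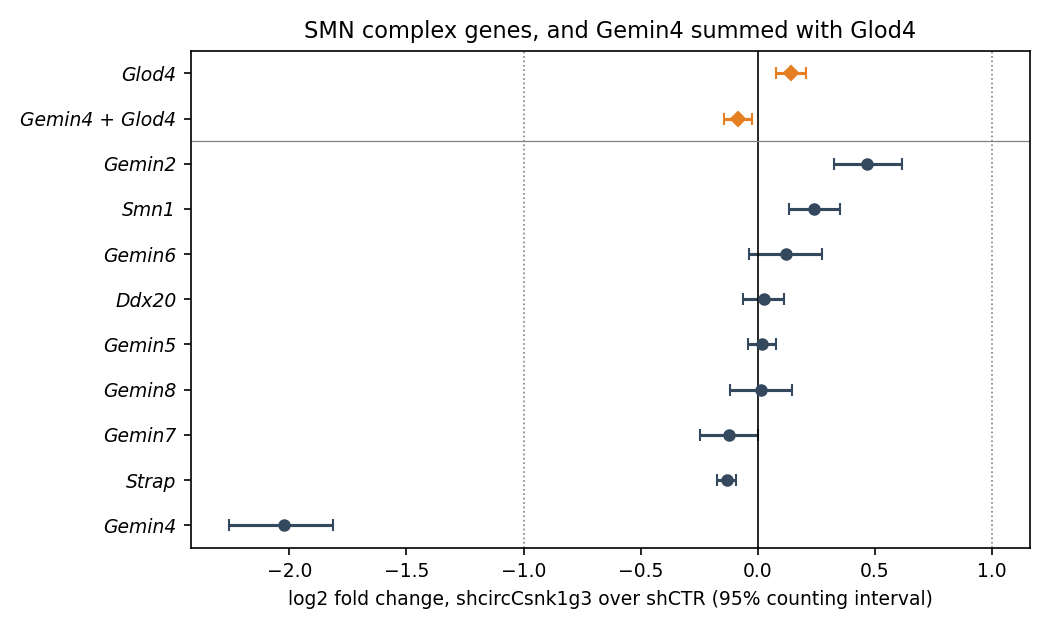
Log2 fold change (shcircCsnk1g3 over shCTR) of the 9 SMN complex genes (circles), and of Glod4 and of the summed counts of Gemin4 and Glod4 (diamonds), with 95% counting intervals. Dotted lines mark 2-fold. Gemin4 is at -2.02, the sum with Glod4 at -0.08, and the other 8 members lie between -0.13 and 0.47.

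Added over the complex, the 9 genes had 20680 counts in shcircCsnk1g3 and 23321 in shCTR, or 527 and 552 CPM. The log2 fold change of the sum was -0.07 (-0.09 to -0.04), and without Gemin4 it was -0.02 (-0.05 to 0.00). Gemin4 made up 1.01% (0.874 to 1.15) of the summed counts in shcircCsnk1g3 and 3.94% (3.69 to 4.19) in shCTR. For Gemin2 these shares were 4.32% (4.05 to 4.61) and 2.98% (2.77 to 3.21). Levels between genes were compared only per kb of exon length. Strap was highest with 75.2 CPM per kb in shcircCsnk1g3 and 82.4 in shCTR, followed by Gemin5 with 17.1 and 16.9. Gemin7, Ddx20, Smn1, Gemin6 and Gemin8 lay between 9.09 and 14.9 CPM per kb in both libraries, and with 1 library of each kind their order cannot be fixed. Gemin2 had 9.44 and 6.81 CPM per kb. Gemin4 was the lowest of the 9 in both libraries, with 1.42 in shcircCsnk1g3 and 5.82 in shCTR. Its place rests on 1 library of each kind and on how the reads of the exon shared with Glod4 were divided, which was not tested.

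**Figure D4:**
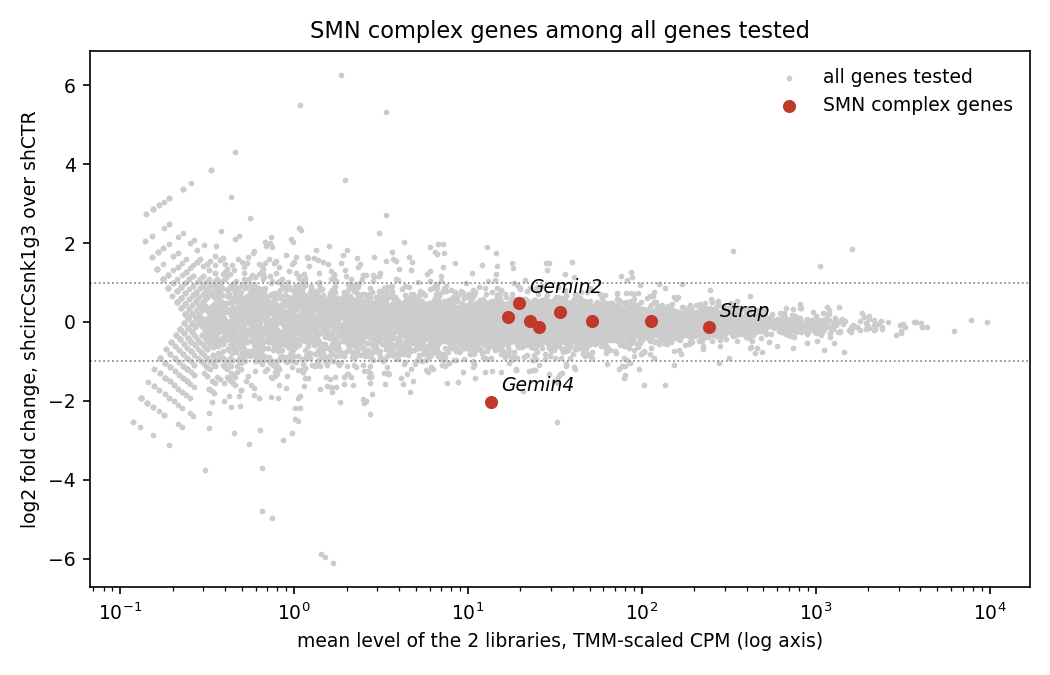
Log2 fold change (shcircCsnk1g3 over shCTR) against the mean TMM-scaled CPM of the libraries (log axis) for 12941 genes (grey) and the 9 SMN complex genes (red). Dotted lines mark 2-fold. Gemin4 lies at the lower edge for its level, and the other members lie within the cloud.

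The short hairpins were compared with the members because a guide strand can also bind transcripts through bases 2 to 8, its seed. The study lists 3 designs against circCsnk1g3. The sequenced cells carried the design of its first knockdown experiments, and the other 2 were tested separately, but which number in the list that design bears is not given in the sources used here. The guide was taken to start right after the loop, and its seed site was searched on the sense strand of the longest coding transcript of 12347 genes. Neither the site of design 1 (TCTCTAT), present in 18.1% of the transcripts, nor that of design 2 (TCTATCA), present in 14.5%, occurs in any of the 9 members. The site of design 3 (ATCAACA), present in 21.8% of the transcripts, occurs once each in Gemin4 and Gemin5. The Gemin4 match lies at the end of the coding sequence within the exon shared with Glod4, and the Gemin5 match within its coding sequence; both are shown with the site in capitals.
Gemin4-201, chr11:76210754-76210782, minus strand: tgctacaaaagATCAACAacttctgacct
Gemin5-205, chr11:58150564-58150592, minus strand: aggccttcgacATCAACAaactcgtgagg
The counts of Gemin4 and Gemin5, which share this match, differed by -2.02 and 0.02 on the log2 scale. In the 3′ untranslated region none of the 3 sites was found in a member, and 10.9%, 7.14% and 6.88% of the 12347 transcripts hold the sites of designs 1, 2 and 3 there. A match of 7 letters is a description of the sequence, and its part in the Gemin4 value was not tested.

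The genes that act before and after the SMN complex, and the Argonaute partners of Gemin3 and Gemin4, were compared in 11 lists with 104 genes tested. None of them was 2-fold lower (2.55% of all genes) or 2-fold higher (2.13%). Most of the listed genes are well counted, and such differences are rarer among well-counted genes. Of the 10662 genes with at least 200 summed counts, 79 were at least 2-fold lower and 60 at least 2-fold higher. At least 1.5-fold lower was 1 gene, Lsm7 (6.31% of all genes), and at least 1.5-fold higher were 0 (5.39%). Intervals lay below 0 for 38 of the 104 genes (36.5%) and above 0 for 25 (24.0%), against 28.2% and 26.9% of all genes. The list medians ran from -0.11 (Sm proteins) to 0.11 (methylosome).

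The methylosome, which dimethylates Sm tails before SMN binds them, had 5 of 6 genes above 0 and 4 intervals above 0, against 50.4% and 26.9% of all genes tested. The highest was Wdr77, the cofactor of Prmt5, at 0.20 (7240 and 6789 counts), with 28.7% of its exon bases shared with another gene on its strand, while Prmt7, a separate arginine methyltransferase, was lowest at -0.09 (3099 and 3553 counts). For the Sm proteins, the cargo of the complex, all 8 genes were below 0 and the intervals of 6 lay below 0, against 49.6% and 28.2% of all genes tested. Their values were small, from -0.05 for Snrpb (11160 and 12482 counts) to -0.24 for Snrpd2 (3326 and 4219 counts), apart from Snrpn at -0.56 (-0.85 to -0.29). Snrpn, the imprinted paralog of Snrpb, had only 172 and 275 counts, and 27.3% of its exon bases are shared with another gene on its strand. Summed over the list, the Sm genes stood at 679 CPM in shcircCsnk1g3 and 734 CPM in shCTR.

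The LSm proteins form the related rings of U6 snRNA, of messenger RNA decay and of the U7 particle. Of 10 genes, 9 were below 0, with a median of -0.10 and 5 intervals below 0 (49.6% and 28.2% of all genes tested for the counts). Lsm7 was lowest with 58 counts in shcircCsnk1g3 and 118 in shCTR, a log2 fold change of -0.90 (-1.40 to -0.45), and it had the fewest counts of the list. Lsm10, a subunit of the U7 ring, was highest at 0.18 (908 and 863 counts). The interval of its ring partner Lsm11, with 616 and 706 counts, held 0 (-0.25 to 0.07).

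For export, capping and import of the snRNA, the median of 7 genes was -0.05. Tgs1, which makes the trimethyl cap of the snRNA, was highest at 0.27 (2301 and 2059 counts), and Ncbp1, a cap-binding protein, lowest at -0.13 (6990 and 8235 counts). For the import adaptor Snupn, with 195 and 218 counts, the interval held 0 (-0.34 to 0.23). SNAPc, the snRNA transcription complex, had a median of -0.02 over 5 genes, from Snapc4 at -0.11 to Snapc5 at 0.41, the latter from 120 and 97 counts. Integrator, which cuts the snRNA 3′ ends, had a median of 0.04 over 14 genes, from Ints5 at -0.24 (14.3% of its exon bases shared on its strand) to Ints7 at 0.36.

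The genes of the Cajal body, in which new snRNPs mature, had a median of -0.03 over 10 genes. The lowest was Nhp2 at -0.38 (2998 and 4192 counts), a subunit of the particles that make pseudouridine. The other subunits of these particles were Nop10 at -0.31 (1247 and 1671 counts), Dkc1 at -0.18 and Gar1 at 0.18, so they did not share a direction. At the upper end, Coil, which encodes the scaffold coilin, was at 0.18 (496 and 471 counts) like Gar1, and the interval of Coil held 0 while that of Gar1 did not (0.11 to 0.26). Of the finished particles, the U1 and U2 proteins had a median of 0.00 over 14 genes, from Snrpb2 at -0.24 to Sf3a3 at 0.11. The U4, U5 and U6 proteins had a median of -0.08 over 15 genes, 12 of them below 0 and 9 with intervals below 0 (49.6% and 28.2% of all genes), from Txnl4a at -0.32 (10.1% of its exon bases shared on its strand) to Cd2bp2 at 0.10. The minor spliceosome proteins had a median of 0.04 over 11 genes, from Pdcd7 at -0.25 to Snrnp35 at 0.23.

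**Figure D5:**
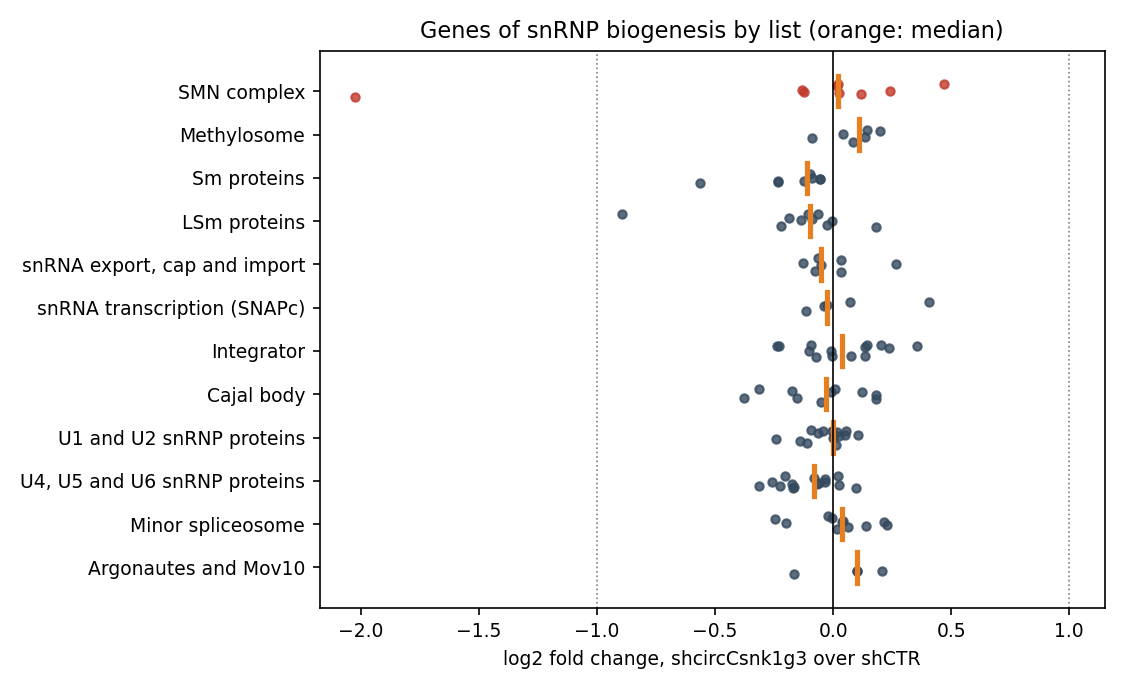
Log2 fold change (shcircCsnk1g3 over shCTR) of each gene of the SMN complex (red) and of 11 lists of snRNP and partner genes (dark), with the list median in orange and dotted lines at 2-fold. Points are spread vertically for display only. Gemin4 is the only gene of these lists beyond 2-fold, and the medians of the 11 lists lie between -0.11 and 0.11.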

How the data were processed

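RNA with a poly(A) tail from 1 library per condition was sequenced with a stranded kit. STAR alignment to GRCm38 and RSEM quantification were done by the authors. The first deposited table gives estimated counts per gene as whole numbers, and its 92 spike-in rows, all at 0, were left out. The other deposited table gives a TMM-scaled CPM signal for 11624 genes, including all 9 members.

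TMM factors came from edgeR 4.0.16 (R 4.3.3) over the genes that reached 10 counts in either library. A prior count of 2 was added for log2 fold changes. Intervals are exact at 95% (Clopper-Pearson for ratios and shares, Poisson for levels) and treat estimated counts as counts. At 100 or 1000 counts in each library the half-width of a ratio's interval is 0.41 or 0.13 on the log2 scale. Python 3.11.15, scipy 1.17.1 and blastn 2.17.0 did the rest, and the steps were tested on simulated data.

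Exons came from GENCODE M21 (GRCm38), in which 25251 of 25509 identifiers were found, 17349 with the same version. The release the authors used is not given in the sources used here. The members and lists were chosen with earlier results of these data known. Named are all members, the highest and lowest gene of each snRNP or Argonaute list and those past 1.5-fold, the genes next to Gemin4 in order, and neighbors. Others were named after their values were seen (Glod4, Dbil5, marker genes, and some list genes named as partners or for their counts). Alternatives were DESeq2 1.42.0 size factors, total counts, a prior count of 0.5 or 10, the scaling of the second deposited table, no filter or at least 50 or 200 summed counts, and thresholds of 1.5-fold and 4-fold. For the second deposited table, the library sizes implied by its values and its set of genes were used with the same counts. Summing Gemin4 with Glod4 was added after seeing the data.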

Additional observations from a re-analysis of the deposited data

How the results depend on the processing

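No paired analysis was possible because each condition had a single library, so no replicate could be left out either. All 45 member values under 5 alternatives (both other scalings, both prior counts and the scaling of the deposited TMM-scaled table) stayed within their counting intervals, with Gemin4 between -2.03 and -1.99. Gemin4 was just short of 4-fold with total counts (-1.993) and with a prior count of 10 (-1.985). All 88 medians of the 11 lists, under these alternatives and the 3 filters, stayed between the medians of their genes' interval limits. The counts of members past 2-fold did not change with these 5 alternatives, nor the counts with intervals beside 0 with both scalings and the deposited table, for which they were computed, and the median over the table reached at most 0.03 (total counts). The summed counts of Gemin4 and Glod4, chosen after seeing the data, had a log2 fold change of -0.085, and with Fam57a added -0.077. These are values of sums of which Gemin4 is a small part, not of Gemin4. With the first sum in place of Gemin4 the number of members at least 2-fold lower was 0, by construction.

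Of all genes tested, 330 were at least 2-fold lower and 275 higher. These counts became 171 and 150 with a prior count of 10, 168 and 107 with the genes and scaling of the deposited TMM-scaled table, 623 and 732 without a filter, 157 and 132 with at least 50 summed counts, 79 and 60 with at least 200, 817 and 698 at 1.5-fold, and 52 and 49 at 4-fold.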

Other observations

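Gemin3 and Gemin4 have also been purified with Argonaute proteins, the core of microRNA particles. Of the Argonaute genes, Ago2 had 11139 counts in shcircCsnk1g3 and 11181 in shCTR (log2 fold change 0.10), Ago1 had 3094 and 3106 (0.10) and Ago3 had 1246 and 1507 (-0.17). Ago4 was at 0 counts in both libraries. Mov10, a helicase found with Argonautes, was at 0.21 (2315 and 2157 counts).

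Of the 17 genes that flank or overlap the other 8 members, 5 had intervals below 0, 4 above 0, and the intervals of 8 held 0, shares near the 28.2% and 26.9% of all genes tested. Below 0 were Sec23a beside Gemin2 at -0.42 (2582 and 3713 counts), Serf1 and Naip2 beside Smn1 at -0.28 and -1.32 (the latter from 17 and 49 counts), Mrpl22 beside Gemin5 at -0.20 and Gpm6b beside Gemin8 at -0.32. Above 0 were Srsf7 and Dhx57 beside Gemin6 at 0.10 and 0.24, Cttnbp2nl beside Ddx20 at 0.23 and Eps8 beside Strap at 0.17. The intervals that held 0 were those of Trappc6b, Cnot8, Ppp1r37, Clasrp, Zfp296, Fancb, Inka2 and Dera.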
